A study of Saccharomyces cerevisiae with 8 samples.

Results

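Divergent start pairs are places where transcripts leave a short stretch of DNA in both directions, with a start on the minus strand to the left and a start on the plus strand to the right. The pairs were defined from the 5′ ends of full-length RNA molecules, summed over 8 libraries and placed in 100-nt bins on each strand of the 16 chromosomes. The position with most 5′ ends in a bin is called its peak. A pair needed a plus bin and a minus bin with at least 100 molecules each and a plus peak 50 to 400 nt to the right of the minus peak, and each plus bin kept the minus bin with most molecules. Of 5946 bins with at least 100 molecules, 803 (460 plus and 343 minus) met this rule and formed 460 pairs at 343 promoter loci. A locus held 1 pair in 240 cases, 2 pairs in 91 cases, and 3 or 4 pairs in 12 cases. Pairs of the same locus share a bin and are not independent. Some loci overlap on the genome, and joining overlapping spans left 341 stretches.

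Budding yeast promoters are often bidirectional. Polymerase is loaded in a nucleosome-depleted region and can leave it on either strand, so neighbouring genes that are transcribed away from each other may draw on the same activating sequences, as GAL1 and GAL10 do. In other places the divergent product is a noncoding RNA, of which many are short and degraded fast. Whether both sides follow the same cell-fate signal or are used apart is the question that the stage comparisons address.

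The molecules came from TIF-seq, transcript isoform sequencing, in which a capped and polyadenylated RNA is copied, the copy is closed into a circle, and both of its ends are read as 1 pair. All libraries came from the diploid SK1 derivative FW2795, whose IME1 gene is placed behind the copper-inducible CUP promoter (irt1::pCUP-3HA-IME1::HphMX) and whose NDT80 gene is placed behind the GAL promoter (ndt80::pGAL-NDT80::TRP1). The strain also carries ura3::pGPD1-GAL4(848).ER::URA3. Its further alleles, on both homologues, are the marker disruptions leu2::hisG, trp1::hisG, and his3::hisG, besides lys2 with ho::LYS2, and ura3. Ime1 is the master regulator of entry into meiosis and Ndt80 turns on the genes for the meiotic divisions and spore formation, so in this strain both steps waited for the added inducers, and all groups carry the same constructs. In the time course CuSO4 (50 μM) was added at 2 h in sporulation medium (SPO) and β-estradiol (1 μM), which activates the Gal4 fusion, at 6 h. In the paper's design, the 2 h samples were taken before the copper was added. Cells returned to rich medium left SPO at 6 h, in parallel with the cells that were given β-estradiol for the meiotic divisions. The labels list no further treatment. The pre-meiotic pool (pm) spans 0 to 2 h in SPO. The early meiotic pool (T1) spans 3 to 6 h in SPO. The mid to late meiotic pool (T2) spans 7 to 9 h in SPO. The return-to-growth pool (T3) spans 15 min to 2 h in rich medium (YPD) after 6 h in SPO. These times are the study's own for each stage, RNA of the time points was mixed in equal amounts, and each stage had 2 libraries, so change within a stage was not seen. Whether the replicates were separate cultures is not stated in the labels, and p-values measure only the spread between these libraries.

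The libraries held 552357 to 1820826 yeast molecules, 8552677 in all. Values given as normalised molecules are molecules divided by a size factor (median of ratios), which was 0.379 to 2.96. Between replicates, the member sides with at least 10 molecules in both libraries differed by a median of 1.70-fold in pm (548 sides), 1.42-fold in T1 (656 sides), 1.77-fold in T2 (633 sides), and 1.28-fold in T3 (339 sides). Replicates lay 2-fold or more apart on 41.1% of these sides in T2 and on 9.44% in T3. The pools were not checked against stage marker genes, since no annotation of the SK1 assembly was used here, and loci are therefore given by coordinates. In pooled RNA, fewer cells of a kind and less RNA per cell cannot be told apart.

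Distance and level were used by the rule and are given as a description. The 2 peaks lay a median of 215.5 nt apart, with quartiles at 175 and 275.25 nt and a range of 56 to 399 nt. In successive classes of 50 nt from the lower limit there were 8, 62, 118, 118, 65, 40, and 49 pairs, so the pairs crowded between 150 and 250 nt. Inside the window and within 15 nt of its limits, before the best minus bin was kept, 2 pairs lay at the lower end and 16 at the upper end. Outside it and within 15 nt, no pair of bins with 100 molecules lay below the window and 21 lay above it. There were 56 pairs with fewer than 10 molecules above the limit of 100 or exactly at it on the weaker side, and 62 pairs missed the limit by 1 to 10 molecules.

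The sides were seldom equal. The weaker side held a median of 219 molecules (range 100 to 8888) and the stronger side a median of 2.65 times as many. The stronger side held at least 2 times the molecules of the weaker in 298 pairs, at least 4 times in 170, and at least 10 times in 86. The minus side was the stronger in 252 pairs and the plus side in 206. The rule keeps the minus bin with most molecules for each plus bin, so it favours stronger minus sides and this count is a description. Across the 460 pairs the levels of the sides followed each other little (r = 0.06 on log10 molecules, rho = 0.06), which is a description over pairs whose bins passed a lower limit. Molecules of member bins made up 12.5% of all molecules. Their share was 11.8% and 8.95% in the pm libraries, 13.8% and 14.99% in the T1 libraries, 15.9% and 14.6% in the T2 libraries, and 7.43% and 7.15% in the T3 libraries. A side without a single molecule occurred in 102 and 143 pairs in the T3 libraries but in 6 and 10 pairs in the T2 libraries. The T3 libraries held 856784 and 552357 molecules in all and the T2 libraries 1668155 and 775322, and the part of depth in this was not tested.

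**Figure D1:**
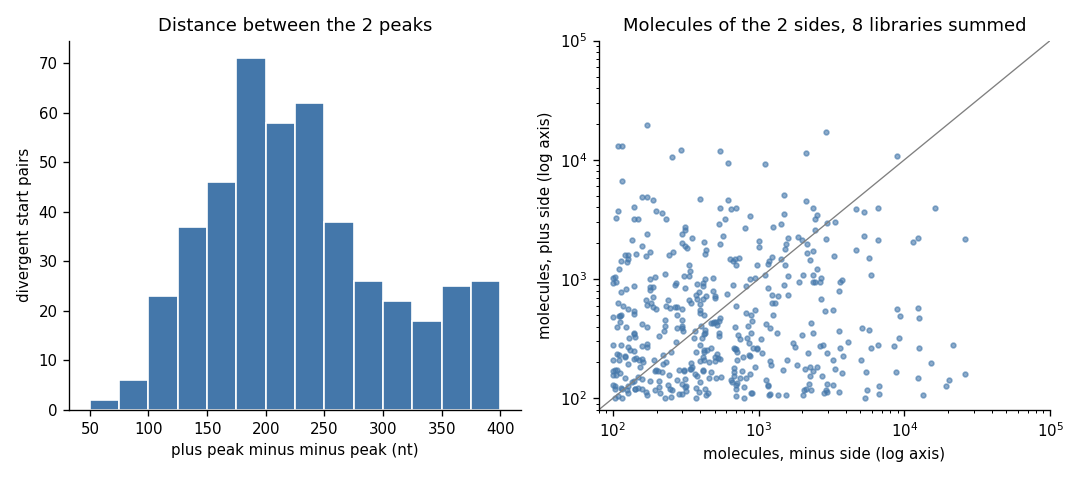
Left, number of divergent start pairs by the distance from the minus to the plus peak in nt, in 25-nt classes. Right, molecules of the minus side (x, log axis) and the plus side (y, log axis) of each pair, 8 libraries summed, with the line of equal levels. The left panel is highest between 150 and 250 nt, and in 170 of 460 pairs the sides are at least 4-fold apart.

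Length and shape of the transcripts were not used by the rule. Molecules under 200 nt made up 2.11% and 2.34% of the pm libraries and 0.873% and 0.400% of the T1 libraries. In the T2 libraries they made up 1.05% and 6.47%, and in the T3 libraries 1.83% and 4.12%. The paper reports that shorter fragments were over-represented in its TIF-seq data, and lengths here are those of the sequenced molecules. The median length of the molecules of a side had a median of 845 nt over sides (range 47 to 1902 nt). In 392 pairs both sides made molecules with a median length of 400 nt or more, in 65 pairs 1 side fell under 400 nt, and in 3 pairs both did. Where 1 side was short, it was the weaker in 45 pairs and the stronger in 20. Stronger sides had a median length of 888.5 nt and weaker sides of 795.5 nt. In the pairs named below, the plus sides with a median length under 400 nt were at chr12:67731-68042, chr16:161260-161529, chr16:244206-244411, chr9:65884-66130, chr13:500232-500441, and chr2:663316-663602. The minus sides under 400 nt were at chr12:33121-33487, chr12:118141-118387, chr13:178693-179005, and chr15:574676-574953. The part of the library shares of short molecules in their changes was not tested. A median of 46.4% of the 5′ ends of a bin lay within 5 nt of its peak, with a range of 14.8% to 99.5%. Cover by transcripts of the opposite strand was averaged from a side's peak to the median 3′ end of its molecules. It equalled or exceeded the number of the side's own molecules at 1 side of 55 pairs and at both sides of 3 pairs. In the pairs named below, such cover was 126.5 times the own molecules at the plus side of chr9:42347-42538. The plus sides of chr12:33121-33487 and chr2:663316-663602 had 4.52 and 1.95 times, and the minus side of chr13:178693-179005 had 1.55 times.

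The pair with most molecules on its weaker side was chr9:413101-413262 on the SK1 assembly of the authors, where the first number is the minus peak and the second the plus peak (the files write chr09). Its minus side had 1265 and 2230 normalised molecules in the pm libraries, 704 and 623 in the T1 libraries, 888 and 597 in the T2 libraries, and 135 and 341 in the T3 libraries. Its plus side had 1533 and 1119 (pm), 1400 and 1001 (T1), 834 and 1004 (T2), and 534 and 657 (T3). Both sides were thus used in every library, and both were lowest in T3. The plus side of chr14:334330-334555, another of the 3 strongest, had 3103 and 127 normalised molecules in T2 and no more than 39.9 in any other library. Its minus side stayed between 504 and 989 in the pm, T1, and T2 libraries and had 154 and 222 in T3. The third, chr9:43641-43772, was highest in T2 on both sides, with 3642 and 3008 on the minus side and 1176 and 695 on the plus side.

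The most unequal pair was chr2:663316-663602, with 26129 molecules on the minus side and 160 on the plus side. Its plus side had 57.6 and 30.9 normalised molecules in pm and at most 21.0 in any other library, while its minus side had 5954 and 3935 in pm and 398 and 488 in T3. At chr4:568972-569216 the minus side had 19461 molecules and the plus side 127. At chr6:70051-70302 the minus side had 20202 and the plus side 142, and both sides of this pair had their highest value in T2 replicate 1. In all 3 of these pairs the minus side was the stronger in every library, a direction that the choice of the strongest minus bin favours.

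To ask whether the sides of a promoter changed together, limma (voom) was fitted to all 11405 bins that averaged 5 or more molecules over the libraries. Calls needed both a p below 0.05, adjusted by the Benjamini-Hochberg method over all bins, and a 2-fold or larger change. T1 was set against pm, and both T2 and T3 were set against T1, so that all 3 comparisons share the T1 libraries and are not independent of each other. The background beside each count is the share of all 5209 opposite-strand pairs of tested bins within 1000 nt of each other, in either orientation. It includes the members, and also pairs of bins with fewer than 100 molecules. Summing all libraries favours bins that are high in a single stage. Without the molecules of that stage a side would have missed the limit of 100 in 83 pairs for pm, 156 for T1, 164 for T2, and 48 for T3, and such pairs tend to differ by the rule itself.

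When cells entered meiosis (T1 against pm), few pairs changed on both sides. Both sides were higher in T1 in 12 pairs (11 loci), 2.61% of the 460, against a background of 1.9%. Both were lower in 9 pairs (8 loci), 1.96%, against a background of 2.11%. Of these, 6 of the 12 would have missed the limit of 100 molecules without T1 and 7 of the 9 without pm, the stages in which they are high. The sides went in opposite directions in 4 pairs, 0.870%, against a background of 1.82%. In 78 pairs 1 side was higher, in 41 pairs 1 side was lower, and in 316 pairs neither side was called. Over all 5209 opposite-strand pairs these counts were 847, 748, and 3310. Counted as bins, 92 of 803 member sides (11.5%) were higher, against 10.8% of all bins, and 56 (6.97%) were lower, against 10% of all bins. Across pairs the log2 fold changes of both sides had r = 0.17 (rho = 0.13). With libraries scaled by their totals, 143 sides were higher and 35 lower, so the split depends on the scaling. The count of 21 pairs called the same way on both sides (4.57%, against a background of 4.01%) fell to 2 without pm replicate 2, to 7 without T1 replicate 1, and to 4 without T1 replicate 2.

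At chr7:438030-438242, the first of the pairs with both sides higher in T1, the minus side had 19.3 and 19.3 normalised molecules in T1, against 0 and 0 in pm. The plus side had 209 and 408 in T1, against 0 and 0 in pm. With a floor of 3 molecules over both pm libraries, the minus side was at least 14.2-fold higher and the plus side at least 200.7-fold higher in T1 (adjusted p = 0.000601 and 1.26e-05). In T3 the minus side had no molecule and the plus side 1, so nearly all molecules of this promoter came from the meiotic pools. At chr16:244206-244411 the minus side had 58.9 and 66.3 in T1, against 2.68 and 6.87 in pm (log2 fold change 3.61 ± 0.76 SE, adjusted p = 0.0033). Its plus side had 246 molecules in T1 against 2 in pm, a ratio of 62.2 (95% counting interval 17.03 to 516). At chr9:65884-66130 the minus side had 79.5 and 114 in T1, against 25.5 and 7.55 in pm (2.77 ± 0.72), and the plus side 186 and 274 in T1, against 12.1 and 2.75 in pm (5.21 ± 0.94). Without pm replicate 2 the less certain side of the chr16 pair had an adjusted p of 0.0839 and that of the chr9 pair 0.202, and without T1 replicate 2 that of the chr9 pair was 0.0641.

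Of the pairs with both sides lower in T1, chr13:587268-587618 had 0.677 and 1.43 normalised molecules on the minus side in T1, against 30.8 and 21.97 in pm (log2 fold change -4.41 ± 1.01 SE). Its plus side had 0.677 and 4.99 in T1, against 42.9 and 48.1 in pm (-4.57 ± 0.90). At chr9:42347-42538 the minus side had 8.12 and 7.13 in T1, against 40.2 and 274 in pm (-3.92 ± 0.93), and the plus side 0.677 and 1.43 in T1, against 12.1 and 61.1 in pm (-4.65 ± 0.98). This plus side lay under opposite-strand cover of 126.5 times its own molecules. The groups did not overlap at either pair, and both were chosen for large changes between the same libraries. The pm libraries of the second pair lay far apart. At chr12:33121-33487 the plus side had 3 molecules in T1 against 18 in pm, a ratio of 11.9 in favour of pm (95% counting interval 3.47 to 62.9). The adjusted p of the less certain side was 0.0860 at the chr13 pair without T1 replicate 1. It was 0.143 at the chr9 pair without pm replicate 2 and 0.0861 without T1 replicate 1. At the chr12 pair it was 0.0593, 0.0696, 0.334, and 0.156 without pm replicate 1, pm replicate 2, T1 replicate 1, and T1 replicate 2.

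Unequal change was tested on the ratio of both sides. The ratio of the plus to the minus side was called different between T1 and pm in 66 pairs at 52 loci (14.3%), against a background of 19.3%. Without the filter on low bins limma voom called 0 of these ratios, with 135 at an unadjusted p under 0.05, and limma-trend with the filter called 40. The ratio moved toward the plus side in 28 pairs and toward the minus side in 38, and 25 of the 66 rested on T1 and 12 on pm to pass the limit of 100 molecules. The first of the named pairs by the fitted value was chr12:67731-68042, where the minus side had 27.1 and 11.4 normalised molecules in T1, against 0 and 0 in pm, and the plus side 10.5 and 6.42 in T1, against 339 and 55.6 in pm (log2 ratio change -9.25 ± 1.161 SE, adjusted p = 0.000199). This value is fitted over a side at 0 in pm and is no bound, so the order of the named pairs is not established, and it was -8.46 without pm replicate 1 and -10.10 without pm replicate 2. The plus side of this pair made molecules with a median length of 47 nt, the shortest of all sides. Molecules under 200 nt made up less of both T1 libraries than of both pm libraries, and the part of this was not tested. Only the minus side of this pair was called, at least 16.2-fold higher in T1, while the plus side had an adjusted p of 0.059. At chr16:862558-862810 the plus side had 49.4 and 68.5 in T1, against 0 and 0 in pm, at least 40.8-fold higher, with 9.47 and 4.99 on the minus side in T1, against 14.7 and 10.3 in pm. The ratio of sides at chr7:1041281-1041509 changed by 7.68 ± 1.00 on the log2 scale, with 339 molecules of the plus side in T1 against 1 in pm, a ratio of 171 (95% counting interval 30.5 to 6788). The count of 66 pairs fell to 9 without pm replicate 2, to 17 without T1 replicate 1, and to 24 without T1 replicate 2.

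After Ndt80 was induced (T2 against T1), all but 2 of the pairs called on both sides were higher on both. Both sides were higher in T2 in 57 pairs at 44 loci on 14 chromosomes, 12.4% of the 460, against a background of 10.6%. No pair was called lower on both sides by limma voom or by limma-trend, against a background of 0.134%, and 8 and 6 pairs were lower on both sides at an unadjusted p under 0.05 by these fits. The sides went in opposite directions in 2 pairs, 0.435%, against a background of 0.557%. In 89 pairs 1 side was higher, in 17 pairs 1 side was lower, and in 295 neither side was called. Over all 5209 opposite-strand pairs these counts were 1312, 229, and 3079. Of 803 member sides, 183 (22.8%) were higher, against 15.6% of all bins, and 18 (2.24%) were lower, against 3.1% of all bins (18.7% of all bins in either direction). The median log2 fold change of the member sides was 0.40, against 0.13 over all bins, and it was 0.40 too with sides at 0 in a stage set to their bound.

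This direction depends on how the libraries were scaled. With the totals, the median log2 fold change of all bins was -0.76 in T2, where the main scaling gave 0.13. The corresponding values were -1.60 and -0.47 in T3 against T1, and 0.46 and 0.05 in T1 against pm. Relative to all bins, the median of the member sides differed by 0.27 in T2, by -0.17 in T3, and by 0.09 in T1 against pm. With sides at 0 set to their bound, the medians of the member sides were -0.62 in T3 (fitted -0.64) and 0.11 in T1 against pm (fitted 0.14). With the totals, 40 pairs were higher and 24 lower on both sides in T2, and 129 sides were higher and 142 lower. Upper-quartile scaling gave 42 and 13 pairs, and 140 and 111 sides.

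Pairs called on both sides in T2 were chosen for changes of at least 2-fold, so the size of their changes is given as a description. The same median was not taken over the background pairs. In the 57 pairs the less changed side had a median log2 fold change of 4.10, and in 52 pairs it was at least 2. In 12 of them a side had no molecule at all in T1, where the fitted value depends on the offset used and is no bound, and with these sides at their bound the median was 4.10 too. Of the 57 pairs, 50 would have missed the limit of 100 molecules without the T2 libraries, so their height in T2 is part of how they were found. The 2 T2 libraries did not weigh equally: 95 of the 114 sides were higher in T2 replicate 1, and 21 sides were at least 5-fold higher there, against 1 side in T2 replicate 2. Without T2 replicate 1 the count was 28, without T2 replicate 2 it was 66, and without T1 replicate 1 it was 33.

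At chr3:163049-163410 the minus side had 1545 and 750.1 normalised molecules in T2, against 0 and 0 in T1, and the plus side 777 and 24.3 in T2, against 0 and 0 in T1. These are at least 1786-fold and 696-fold higher in T2 with a floor of 3 molecules over both T1 libraries (adjusted p = 1.74e-07 and 0.00018). Both pm libraries were also at 0 on both sides, and T3 held 3 molecules on the minus side only. At chr7:1028781-1028948 the minus side had 1416 and 382 in T2, against 1.02 and 1.43 in T1 (log2 fold change 9.08 ± 0.95 SE), and the plus side was at least 249-fold higher, with 256 and 43.4 in T2, against 0 and 0 in T1. At chr16:508029-508334 the plus side had 7388 and 3853 in T2, against 7.11 and 9.27 in T1 (9.38 ± 0.77). Its minus side had 451 and 10.2 in T2, against 0 and 0 in T1, at least 402-fold higher. In all 3 pairs the side with fewer molecules lay much lower in T2 replicate 2 than in replicate 1. Without T2 replicate 1 that side fell below the filter and none of the 3 pairs could be fitted. Without T2 replicate 2 the log2 fold change of the less changed side was 11.67, 9.96, and 9.85, against 9.35, 8.86, and 8.37 with both libraries, values fitted on sides at 0 in T1.

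Across the 460 pairs the log2 fold changes of both sides had r = 0.60 and rho = 0.36. Of these pairs, 164 would have missed the limit of 100 molecules without T2. The value of r may thus in part be set by the rule, and it was not taken without those pairs. The points share libraries and, within a locus, bins. The value was 0.51 over the 447 pairs in which no side was at 0 in both libraries of T2 or of T1, and 0.42 without T2 replicate 1. By distance it was 0.56 for 70 pairs at 50 to 150 nt, 0.51 for 236 pairs above that and up to 250 nt, and 0.68 for the 154 pairs farther apart. Both sides were higher in 6, 24, and 27 pairs of these classes. For opposite-strand pairs with peaks over 400 and up to 1000 nt apart, chosen by the same rule otherwise, r was 0.40 over 460 pairs. Of those pairs, 38 were higher and 2 lower on both sides. Over all 5209 opposite-strand pairs r was 0.38, and over 1549 pairs of bins on the same strand 50 to 400 nt apart it was 0.85. No test was made between these sets, which share bins.

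**Figure D2:**
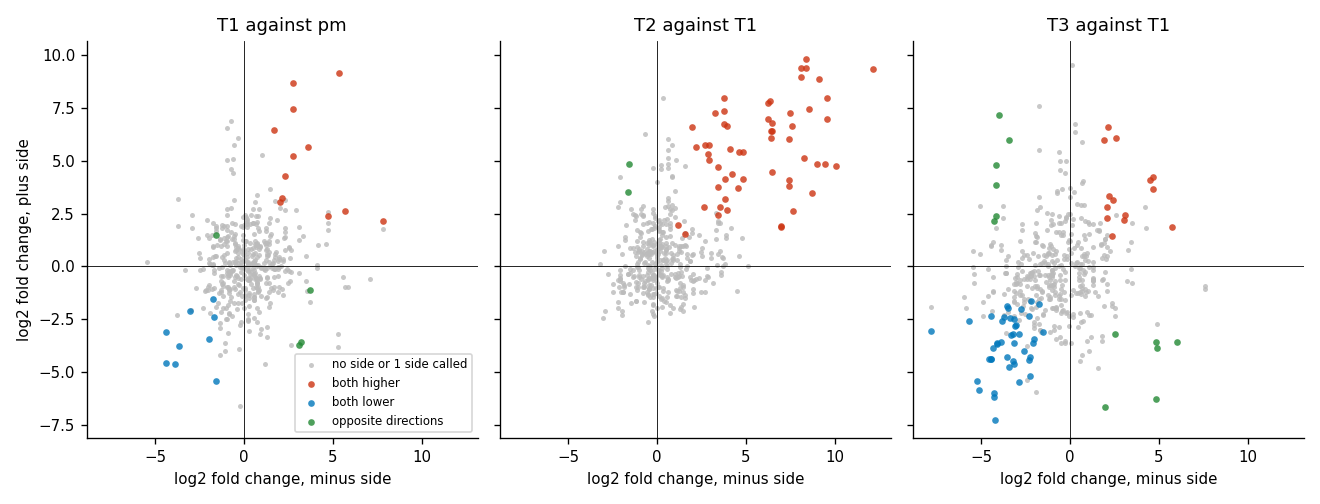
Log2 fold change of the minus side (x) and of the plus side (y) of each of 460 divergent start pairs, with a panel for each comparison, from T1 against pm on the left to T3 on the right. Colours mark pairs with both sides called higher (12, 57, and 14 pairs), both lower (9, 0, and 43 pairs), or in opposite directions (4, 2, and 12 pairs), and grey marks the rest.

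Unequal change was seen in T2 as well. The ratio of the sides differed between T2 and T1 in 72 pairs at 59 loci (15.7%), against a background of 18.9%, toward the plus side in 45 and toward the minus side in 27. Of the 72 pairs, 37 would have missed the limit of 100 molecules without T2 and 14 without T1. At chr8:73277-73465 the minus side had 34.4 and 16.6 normalised molecules in T2, against 17.9 and 22.8 in T1, while the plus side had 349.7 and 44.7 in T2, against 0.677 and 0 in T1. Those are 452 molecules in T2 against 2 in T1, a ratio of 499 (95% counting interval 137 to 4130). The log2 ratio of the sides changed by 7.62 ± 1.14 (SE, adjusted p = 0.000511). The minus side of this pair thus kept overlapping values in both stages while the plus side was almost absent from T1. At chr16:161260-161529 the minus side had 573 and 621 in T2, against 871 and 1124 in T1, and the plus side 21.0 and 317 in T2, against 0.677 and 0.713 in T1. Those are 273 molecules in T2 against 3 in T1, a ratio of 200.8 (95% counting interval 68.0 to 980, counting error only), and the T2 libraries lay far apart at both pairs. The chr8 pair could not be fitted without T2 replicate 1 and the chr16 pair could not be fitted without T2 replicate 2. The ratio changes were 8.57 at the chr8 pair without T2 replicate 2 and 9.06 at the chr16 pair without T2 replicate 1, where all libraries gave 7.62 and 7.01. At chr4:141293-141691 the minus side had 147 and 171 in T2, against 391 and 628 in T1 (log2 fold change -1.59 ± 0.52), and the plus side 122 and 142 in T2, against 5.08 and 3.57 in T1 (4.84 ± 0.72). This is 1 of the 2 pairs called in opposite directions. With each pair of ends counted once, the log2 ratio change was 4.78 at the chr4 pair and 4.94 at the chr16 pair, against 6.45 and 7.01. The count of 72 fell to 11 without T1 replicate 1, to 20 without T1 replicate 2, and to 39 without T2 replicate 1, and the ratio of the chr16 pair had an adjusted p of 0.0550 without T1 replicate 1.

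When cells were returned to rich medium (T3 against T1), more pairs were called lower than higher on both sides, but not with either T3 library left out. Both sides were lower in T3 in 43 pairs at 35 loci, 9.35% of the 460, against a background of 5.13%. Both were higher in 14 pairs at 12 loci, 3.04%, against a background of 1.92%. The sides went in opposite directions in 12 pairs, 2.61%, against a background of 2.9%. In 62 pairs 1 side was higher, in 128 pairs 1 side was lower, and in 201 neither side was called. Over all 5209 opposite-strand pairs these counts were 709, 1277, and 2705. Of 803 member sides, 94 (11.7%) were higher, against 15.2% of all bins, and 191 (23.8%) were lower, against 18.1% of all bins. With libraries scaled by their totals, 48 sides were higher and 366 lower, and both sides were lower in 121 pairs and higher in 5. Of the 43 pairs, 25 would have missed the limit of 100 molecules without T1, where they are high, and of the 14 pairs higher in T3, 8 would have missed it without T3. The count of 57 pairs called the same way on both sides (12.4%, against a background of 7.05%) was 12 without T3 replicate 1 (9 higher and 3 lower), 12 without T3 replicate 2 (6 higher and 6 lower), 34 without T1 replicate 1, and 35 without T1 replicate 2. The same limit of 100 molecules gave 460 divergent pairs over 400 and up to 1000 nt apart, of which 30 were lower and 20 higher on both sides. Of 37 pairs with the plus peak 50 to 400 nt to the left of the minus peak, 11 were lower and 1 higher on both sides.

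At chr13:178693-179005 both sides had 0 and 0 molecules in T3, against 38.2 and 40.6 normalised molecules in T1 on the minus side and 49.1 and 39.2 in T1 on the plus side. With the floor of 3 molecules over both T3 libraries, they were at least 13.1-fold and 15.4-fold lower in T3 (adjusted p = 0.000103 and 9.14e-05). At chr13:601031-601202 the minus side had 17.5 and 18.5 in T3, against 579 and 798 in T1 (log2 fold change -5.12 ± 0.68 SE, -3.52 with each pair of ends counted once), and the plus side was at least 20.0-fold lower, with 0 and 0 in T3, against 60.9 and 57.0 in T1. At chr8:34639-34887 the minus side had 3.19 and 2.64 normalised molecules in T3, against 85.3 and 106 in T1, and the plus side 0 and 2.64 in T3, against 35.2 and 39.9 in T1. With only 3 and 1 molecules in T3, the ratios were 30.9 and 37.0 in favour of T1 (95% counting intervals 10.5 to 150.4 and 6.54 to 1469). The groups did not overlap at any of these pairs, which were chosen for large changes between the same libraries. Without T3 replicate 1 the less certain side of the chr8 pair had an adjusted p of 0.151.

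Of the pairs higher on both sides in T3, chr1:62566-62783 had 76.4 and 121 normalised molecules on the minus side in T3, against 2.71 and 4.99 in T1 (log2 fold change 4.64 ± 0.79 SE). Its plus side had 2605 and 2703 in T3, against 154 and 125 in T1 (4.23 ± 0.72). At chr12:33121-33487 the minus side had 33.4 and 34.3 in T3, against 0.338 and 4.99 in T1, and the plus side 10 molecules in T3 against 3 in T1, a ratio of 14.4 (95% counting interval 3.72 to 81.6). The T1 libraries of this pair are the same ones as in the comparison with pm, in which it was lower in T1. At chr12:118141-118387 the minus side had 100.3 and 119 in T3, against 11.2 and 32.8 in T1 (2.60 ± 0.70), and the plus side 333 and 396 in T3, against 5.08 and 4.99 in T1 (6.09 ± 0.81). The adjusted p of the less certain side was 0.0893, 0.0839, and 0.0626 at chr12:33121-33487 without T1 replicate 1, T1 replicate 2, and T3 replicate 2, and 0.147 at chr12:118141-118387 without T1 replicate 1.

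The ratio of the sides differed between T3 and T1 in 110 pairs at 89 loci (23.9%), against a background of 21.5%, toward the plus side in 72 and toward the minus side in 38. Of the 110 pairs, 21 rested on T3 and 34 on T1 to pass the limit of 100 molecules. At chr13:500232-500441 the minus side had 2 molecules in T3 against 159 in T1, a ratio of 18.4 in favour of T1 (95% counting interval 5.001 to 153). Its plus side had 115 and 143 normalised molecules in T3, against 2.03 and 0 in T1 (log2 ratio change 11.19 ± 1.55 SE, adjusted p = 0.000208). Leaving out each T1 or T3 library in turn, the ratio changed by 9.46 to 13.07. At chr7:1041281-1041509 the minus side had 414 and 317 in T3, against 9.81 and 17.1 in T1 (4.85 ± 0.70), and the plus side was at least 26.1-fold lower, with 0 and 0 in T3, against 59.9 and 116 in T1. The stronger side of these promoters was thus on opposite strands in T3 and T1, in every library. At chr15:574676-574953 the minus side had 52.6 and 129 in T3, against 4.06 and 0 in T1, and the plus side 11.1 and 5.28 in T3, against 107 and 108 in T1 (log2 ratio change -9.52 ± 1.78). Its ratio change was -11.42 without T1 replicate 1, -7.83 without T1 replicate 2, -10.58 without T3 replicate 1, and -8.45 without T3 replicate 2. The count of 110 pairs was 36 without T3 replicate 1, 33 without T3 replicate 2, 56 without T1 replicate 1, and 52 without T1 replicate 2, and the ratio of the chr15 pair had an adjusted p of 0.0558 without T3 replicate 2.

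**Figure D3:**
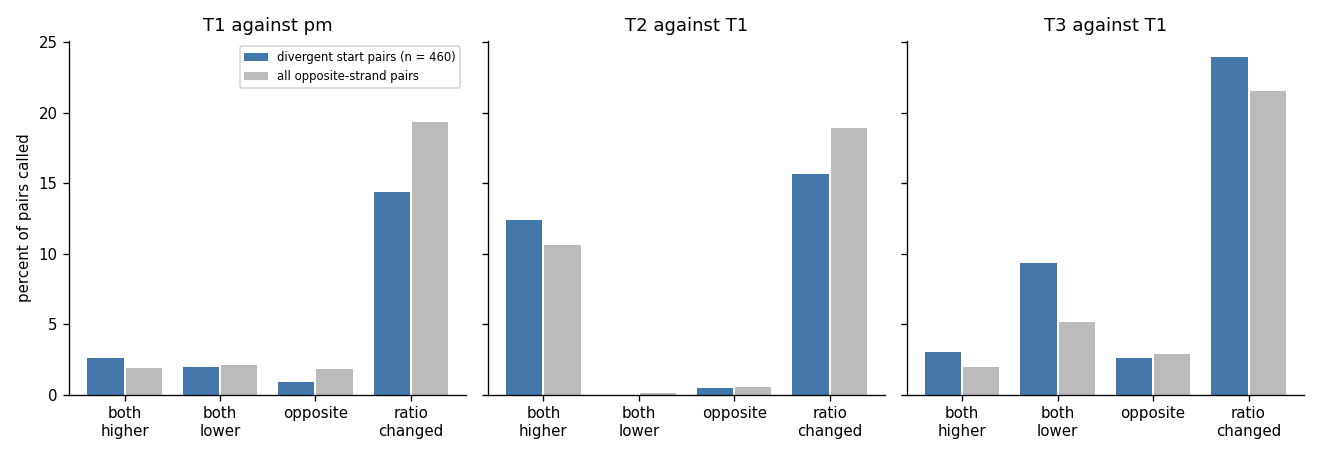
Percent of pairs called (y, from 0) with both sides higher, both lower, in opposite directions, or with a changed ratio of sides, for the 460 divergent start pairs (blue, left) and all 5209 opposite-strand pairs of tested bins within 1000 nt (grey, right), in each comparison. Both sides were lower in 9.35% of the divergent start pairs (43 of 460) in T3 against T1, where the background is 5.13%. The background also holds bins with fewer than 100 molecules, and 25 of the 43 would have missed that limit without T1. With either T3 library left out, pairs lower on both sides did not outnumber those higher on both. Among 460 divergent pairs over 400 and up to 1000 nt apart, not drawn, both sides were lower in 30.

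Across the 460 pairs r of both sides was 0.22 (rho = 0.26) in T3 against T1. For pairs over 400 and up to 1000 nt apart it was 0.13 in T3 against T1 and 0.12 in T1 against pm. For the 37 pairs of facing starts, with the plus peak 50 to 400 nt to the left of the minus peak, it was 0.55 in T3 against T1, 0.14 in T2 against T1, and 0.40 in T1 against pm. Where 1 or both sides made molecules under 400 nt (68 pairs), r was 0.04 in T3 against T1, 0.61 in T2 against T1, and 0.06 in T1 against pm. In the 392 pairs without such a side it was 0.27, 0.60, and 0.21 in the same order. These values are descriptions and no test was made between them.

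The stronger side of a promoter was not always the same. Among pairs with at least 10 molecules in each of the 4 libraries compared, the stronger side by normalised molecules switched strand in 69 of 308 pairs (22.4%) between T3 and T1, in 47 of 425 (11.1%) between T2 and T1, and in 44 of 403 (10.9%) between T1 and pm. The ratio test called 49, 28, and 22 of these. No background share was taken for the switches, so they are a description. By the mean of both libraries, both sides had their highest level in the same stage in 207 of 460 pairs (45%), which was T2 in 122 pairs, T1 in 32, T3 in 29, and pm in 24. Taken singly, the plus side was highest in T2 in 203 pairs and the minus side in 196, and no background share was taken. Since 164 pairs would have missed the limit of 100 molecules without T2, T2 as the shared stage is in part set by the rule. With the totals both sides were highest in the same stage in 189 pairs, with T1 the stage in 79 and T2 in 75, so the order of T1 and T2 depends on the scaling.

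The position of the starts within a bin was read on sides with at least 20 molecules in all 4 libraries compared. The peaks of replicates differed by over 5 nt on 58 of 213 such sides in T3 or T1, on 114 of 393 in T2 or T1, and on 133 of 383 in T1 or pm, and these sides were left out. Among the rest, chosen for peaks that replicates share, the peak moved by 20 nt or more in 1 of 155 sides between T3 and T1, in 5 of 279 between T2 and T1, and in 6 of 250 between T1 and pm. On chromosome 14, the peak of a plus side was at 651330 in both T2 libraries and at 651375 in both T1 libraries. As a measure of the 5′ ends themselves, 43.2% to 87.5% of molecules of the spike-in RNA pGIBS-LYS started within 5 nt of its most used start, and the part of this spread in the peaks was not tested.

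**Figure D4:**
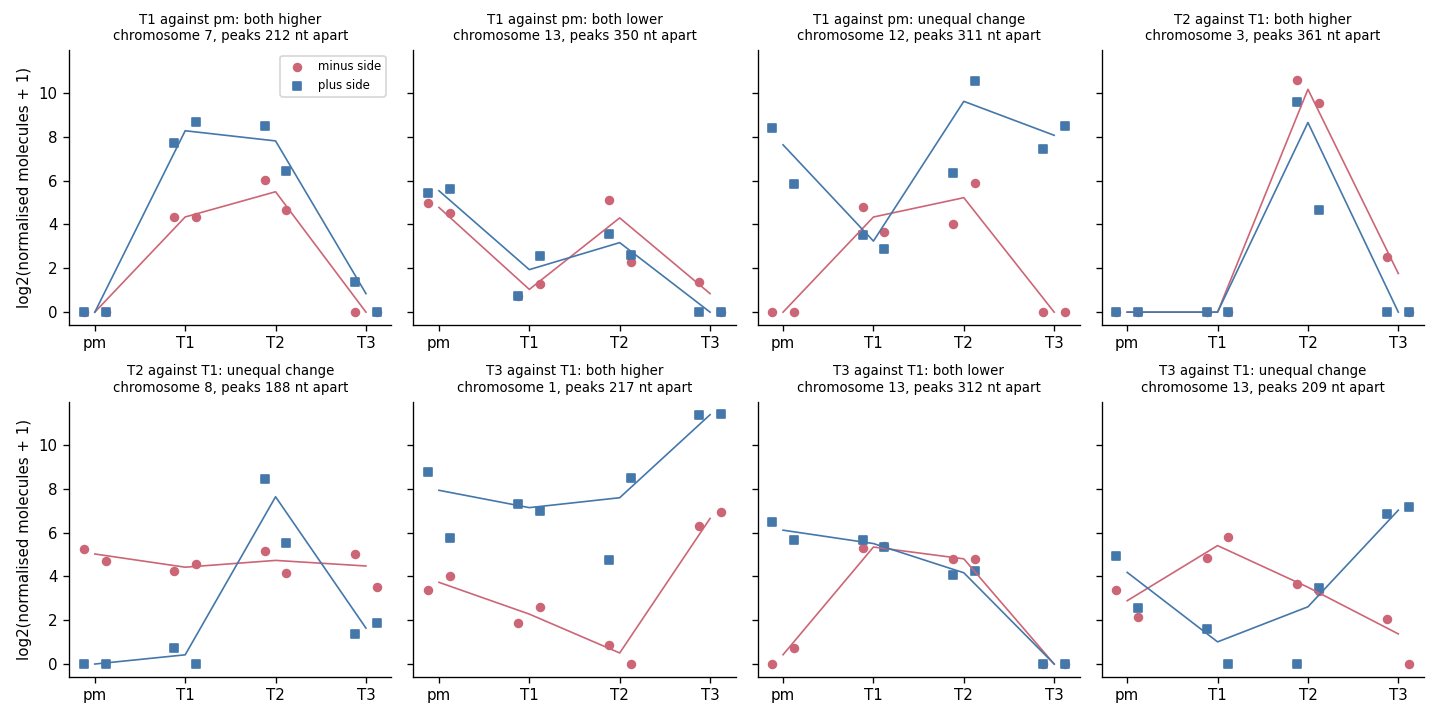
Log2 of normalised molecules plus 1 (y) in the 2 libraries of each stage (x) for the first named pair of each kind, minus side as circles and plus side as squares, with lines through the stage means. The pair on chromosome 3 has 0 on both sides in pm and T1 and its highest values in T2, and the pair on chromosome 13 with peaks 312 nt apart has 0 on both sides in T3.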

How the data were processed

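Members, lists, and tests were chosen with earlier results of these data known. The authors made TIF-seq libraries, removed repeated molecular identifiers, and mapped read pairs to the SK1 assembly. The submitters' processing notes name cutadapt 1.16, STAR 2.5.3a, and bedtools without roles. In the deposited files there is 1 line per molecule, with positions of both ends, strands, and a mapping score that the authors' tools set to the same value everywhere. They hold no count per feature, so molecules per bin were counted here, and no molecule repeated both ends and identifier within a library. The input of RNA differs between the labels and the paper's methods.

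The 5′ end is the first position of a plus molecule or the last of a minus molecule, 1-based. Molecules were summed per 100-nt bin and strand and tested with limma 3.58.1 (R 4.3.3) voom weights, median-of-ratios size factors, and stage as the only term over all 8 libraries. The ratio test used log2 of the plus over the minus side across all 5209 opposite-strand pairs. All p-values are two-sided and adjusted over all bins or pairs tested. The limma and pairing steps were tested on simulated data. Named were, per comparison, the 3 pairs with both sides higher and the 3 with both lower whose less changed side changed most, and the 3 with the largest called ratio change, besides the 3 with most molecules on the weaker side and the 3 most unequal, with 1 pair per locus in each list. Counting intervals are exact (binomial) and, like the floors, cover counting error only. Tables were handled with Python 3.11.15 and pandas 2.3.3. No genome or annotation of the SK1 assembly was used here, so no sequences and no gene names are given for the loci.

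Alternatives tried were other scalings, limma-trend, other filters, the 2 stages alone, a replicate block, each pair of ends counted once, 1 pair per locus, other settings of the pairing rule, and each library left out.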

Additional observations from a re-analysis of the deposited data

How the results depend on the processing

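Of the 187 values obtained for the member count and the 9 stage results under alternative settings, 148 stayed within 1.5 times the main count (for r, within 1 SD of the values with 1 library left out), and no r changed sign. Leaving out 1 library at a time, pairs called the same way on both sides numbered 12 to 81 in T3 against T1, 28 to 66 in T2 against T1, and 2 to 30 in T1 against pm. Pairs with a changed ratio numbered 33 to 134, 11 to 83, and 9 to 95 in the same order, and r ranged from 0.18 to 0.25, 0.42 to 0.60, and 0.11 to 0.21. Without 1 library of a compared stage, the lone sample is assumed to vary like the other groups. Limma-trend called 35 ratios in T2 against T1 and 40 in T1 against pm. Without the filter, 364170 opposite-strand pairs entered the adjustment and 50, 5, and 0 ratios were called in T3 against T1, T2 against T1, and T1 against pm, with 168, 135, and 135 at an unadjusted limma p under 0.05. With the filter raised to a mean of 20 molecules, 301 pairs were left, 37 and 32 pairs were called on both sides in T3 and T2 against T1, and r was 0.26 in T3 against T1 and 0.20 in T1 against pm. With only the 2 stages compared, 39 ratios were called in T2 against T1, and r was 0.26 in T3 against T1 and 0.22 in T1 against pm, and the cause was not tested. Scaling by the total called 126 pairs on both sides in T3 against T1. The pairing rule gave 832 pairs at 50 molecules and 244 at 200 molecules, against 460, and 347 to 438 with a library left out.

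Replicate numbers did not pair the libraries (r of deviations -0.05, -0.26, and -0.24 in T3 against T1, T2 against T1, and T1 against pm). With a replicate block, 49, 55, and 15 pairs were called on both sides and 104, 66, and 58 ratios were called. With the crossed block, chosen after seeing the data, these were 61, 59, and 20 pairs and 118, 82, and 68 ratios. Of 24 named changes, 8 kept their call under each setting that could be fitted, and 10 lost it with a library left out. Besides those, chr16:244206-244411 lost it with each pair of ends counted once (adjusted p = 0.0913) and the T3 change at chr12:118141-118387 with the totals (0.0867). With only the 2 stages compared, it was lost at chr3:163049-163410 (0.0687), at chr16:508029-508334 (0.0887), and for the ratio at chr16:161260-161529 (0.0603). Without the filter, the ratio calls were lost at chr12:67731-68042 (0.0614), chr16:862558-862810 (0.0588), and chr7:1041281-1041509 (0.0588) in T1 against pm, at chr8:73277-73465 (0.0534) and chr16:161260-161529 (0.0926) in T2, and at chr15:574676-574953 (0.0922) in T3. With each pair of ends counted once, 16 of the 24 named changes were smaller by over 1.5 times, and with the totals 9 moved by that much, of which 6 were smaller. Depth limits the folds of sides with no molecule in a stage to lower bounds.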
